A study of Mus musculus with 4 samples.

Results

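Genes that mark blood and lymphatic endothelium were followed in the ileum of C57BL/6J mice given metformin, a glucose-lowering biguanide. The list held 32 genes, 27 of blood endothelium and 5 of lymphatic endothelium (Lyve1, Prox1, Pdpn, Flt4 and Mmrn1), taken by gene symbol. All 32 had at least 1 probe on the array, found by the RefSeq accession of the probe. Of these, 26 (22 blood and 4 lymphatic genes) had a signal well above background on both arrays of the controls, of the metformin group or of both, and entered the 21649 genes and transcripts tested.

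Ileal total RNA of male mice, 10 weeks old, was labelled with Cy3 and measured on 4 single-colour arrays. The 2 control samples carry no agent or vehicle in the labels, and the 2 metformin samples came from mice treated orally at 1000 mg/kg for a time the labels do not give. The labels do not say whether the pair of samples in a group stems from different mice. The p-values and standard errors (SE) therefore rest on the spread between these samples, and that spread may be technical. In the fit, each gene's own spread was moderated toward that of all genes. The 4 arrays lay on 1 slide, controls at positions 1 and 2 and metformin samples at positions 3 and 4, so an effect of position cannot be told apart from treatment.

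Endothelial cells line the vessels and hold together through adhesion proteins, and they read growth signals through receptor kinases for the VEGF and angiopoietin ligands. Each small intestinal villus holds a network of fenestrated blood capillaries that carries absorbed sugars and amino acids to the liver, around a central lymphatic vessel, the lacteal, that takes up chylomicrons. Lymphatic endothelium is set apart by the transcription factor PROX1 and by the receptor for VEGF-C, encoded by Flt4. In RNA from a whole piece of tissue, fewer cells of a type and less RNA per cell cannot be told apart.

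The arrays had 65.2% to 69.1% of their probes well above background. The 11 intestinal epithelium markers were well above background on all 4 arrays. Metformin 1 stood apart by its ileal markers: Slc10a2, the ileal bile acid transporter, read 4.46 and 3.28 in the controls and -0.89 and 4.93 with metformin, and Fabp6, which binds bile acids inside ileal cells, had 8.94 and 8.29 in the controls and 4.16 and 8.70 with metformin. Across genes it correlated with the other arrays at 0.964 to 0.975, while control 2 and metformin 2 correlated at 0.993. Control 1 stood apart by its muscle wall genes: the 9 measured smooth muscle markers had a median of 2.34 there and of -2.34 in control 2, while the metformin samples had -3.45 and -2.55 (log2, relative to each gene's control mean). The median difference of the blood endothelium genes described below was -1.14 over all samples, -1.21 without metformin 1 and -1.25 without control 1. It was smaller, at -0.88 and -0.996, without control 2 and without metformin 2.

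Most of the measured blood endothelium genes read lower in both metformin samples than in both controls, while no gene of the list passed the test across all genes. Values are log2 signals relative to the array's 75th percentile, so that 0 equals that percentile, and they are compared only within a probe. In limma's fit the adjusted p was 0.9996 for each of the 26 genes, and 0% of all genes passed in either direction. The groups did not overlap, with metformin lower, for 17 of the 22 blood genes, against 8.46% of all genes tested, and for none with metformin higher, against 12.5% of all genes. At least 2-fold lower without overlap were 14 of the 22, against 2.30% of all genes, and 0 were at least 2-fold higher, against 0.633%. For 11 of the 22 the gap between the groups was wider than the range within either group, which held for 1.58% of all genes. At an unadjusted limma p under 0.05 stood 12 of the 22, all lower, against 1.25% of all genes. The median difference of the 22 genes was -1.14 on the log2 scale, against 0.06 over all genes, and the lowest and highest differences were -1.71 (Cdh5) and 0.21 (Icam2). These counts cover the genes that passed the filter on dim probes, of which 1, Sox17, passed through the controls alone.

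**Figure D1:**
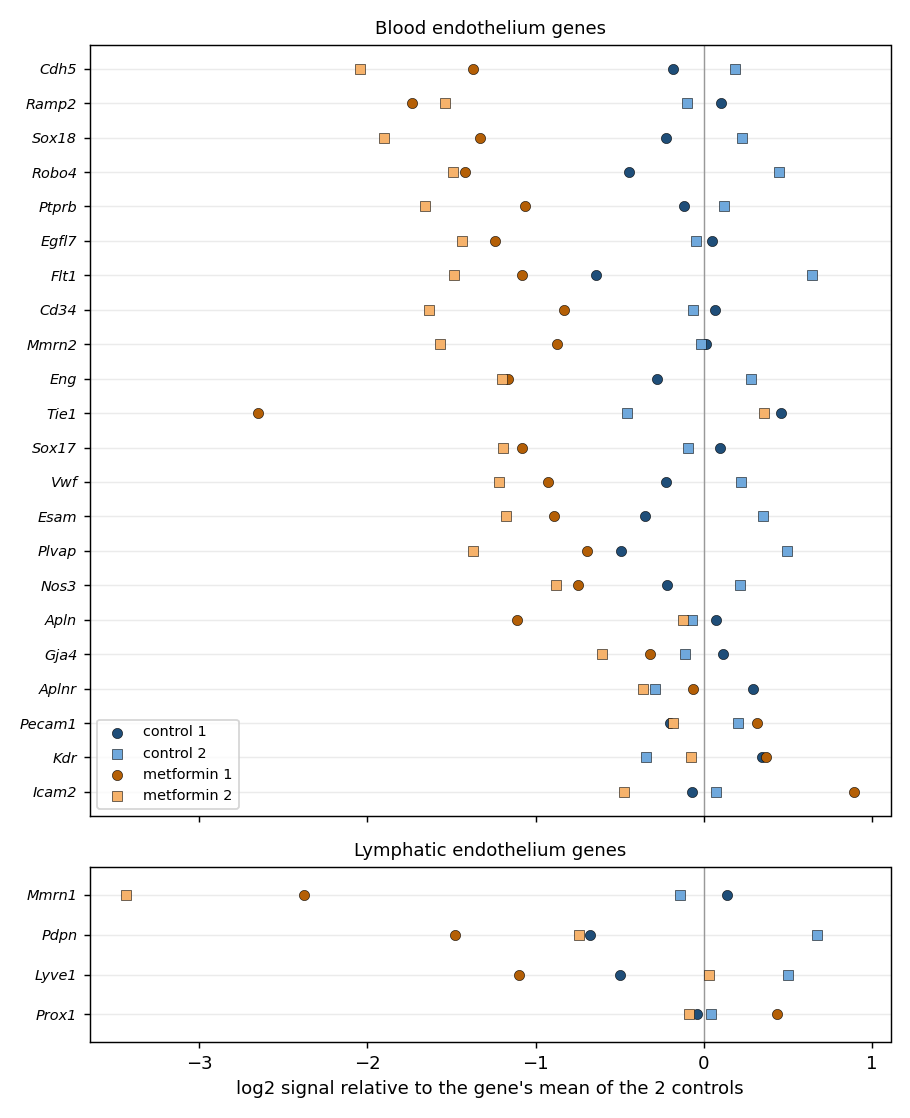
The 26 measured endothelium genes, 1 row per gene, with the log2 signal of each of the 4 samples relative to the gene's mean of the 2 controls on the horizontal axis (circles and squares for samples numbered 1 and 2, blue for control, orange for metformin). In 17 of the 22 blood genes both orange points lie to the left of both blue points, and Mmrn1 has the lowest points of the 4 lymphatic genes.

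Within the groups the blood genes spread about as much as all genes did. The 2 controls differed by a median of 0.42 over the 22 genes and the 2 metformin samples by 0.43, close to the 0.44 and 0.49 of all genes. Control 1 lay above control 2 in 10 of the 22, whereas 58.0% of all genes were higher in control 1. Metformin 1 read below control 1 in 19 of the 22 (47.0% of all genes) and metformin 2 below control 2 in 20 (39.8% of all genes). A lower mean with metformin was found for 19 of the 22 (42.1% of all genes). Metformin 2 lay below metformin 1 in 19 (55.2% of all genes) and was the lowest of the 4 samples for 17 of the 22 genes, against 16.3% of all genes.

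Of the junction and adhesion genes, Cdh5 and Esam read lower with metformin without overlap, while the groups overlapped for Pecam1 and Icam2, adhesion molecules that leukocytes carry too. Cdh5, the cadherin of endothelial adherens junctions, had control values of -3.46 and -3.09 (samples 1 and 2, the order kept throughout) and metformin values of -4.65 and -5.31. Both metformin values lay below both controls, a difference of -1.71 (SE 0.37), or 3.27-fold. Esam, an endothelial adhesion molecule of tight junctions, read -2.83 and -2.13 in the controls and -3.37 and -3.65 with metformin. Its groups did not overlap either, at a difference of -1.03 (SE 0.37), which was -0.68 without control 2. Pecam1, an adhesion molecule also found on platelets and leukocytes, read -4.33 and -3.92 in the controls and -3.81 and -4.31 with metformin. Its groups overlapped, and the difference was 0.07 (SE 0.35). Icam2, a ligand of leukocyte integrins, read -1.88 and -1.74 in the controls, with metformin 1 at -0.92 and metformin 2 at -2.29. Metformin 1 was its highest sample and metformin 2 its lowest, at a mean difference of 0.21 (SE 0.54). The lymphocyte markers stood highest in metformin 1 too, with a median of 1.14 there against -0.30 in metformin 2. All 8 were measured, 7 with a higher mean and 1 with a lower one, where 42.1% of all genes were lower. Their summed signals were 11.1 and 10.2 in the controls and 13.2 and 6.68 with metformin. The part of lymphocytes in the Icam2 values was not tested.

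Of the VEGF receptors, Kdr gave a reading that depended on the probe. Kdr encodes the main signalling receptor for VEGF-A, and 2 of its probes were well above background on all 4 arrays. The brighter probe read 2.23 and 1.53 in the controls and 2.25 and 1.81 with metformin, so that the groups overlapped at a difference of 0.15 (SE 0.39). The dimmer probe read -2.25 and -1.46 in the controls and -3.12 and -3.77 with metformin. On that probe the groups did not overlap, and the difference was -1.59, within the range of the other blood genes. Averaged over both probes the difference was -0.72. Flt1, a VEGF receptor that also acts as a decoy, read -2.02 and -0.74 in the controls and -2.45 and -2.86 with metformin, with both metformin values the lower ones. The difference was -1.28 (SE 0.53), and it was -0.64 without control 2 and -1.92 without control 1, since the controls differed by 1.28.

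Apart from Kdr, 3 more blood genes had a pair of kept probes, and on these both probes read lower with metformin. Ptprb, a phosphatase that restrains endothelial receptor kinases, read -1.94 and -1.70 in the controls and -2.88 and -3.47 with metformin on its brighter probe. It differed by -1.36 on that probe and by -2.08 on its dimmer one. Nos3, the endothelial nitric oxide synthase, differed by -0.81 on its brighter probe, and its dimmer probe, not well above background with metformin, was at least 2.36-fold lower. Plvap, which forms the diaphragms of capillary fenestrae, differed by -1.03 and -0.65.

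**Figure D2:**
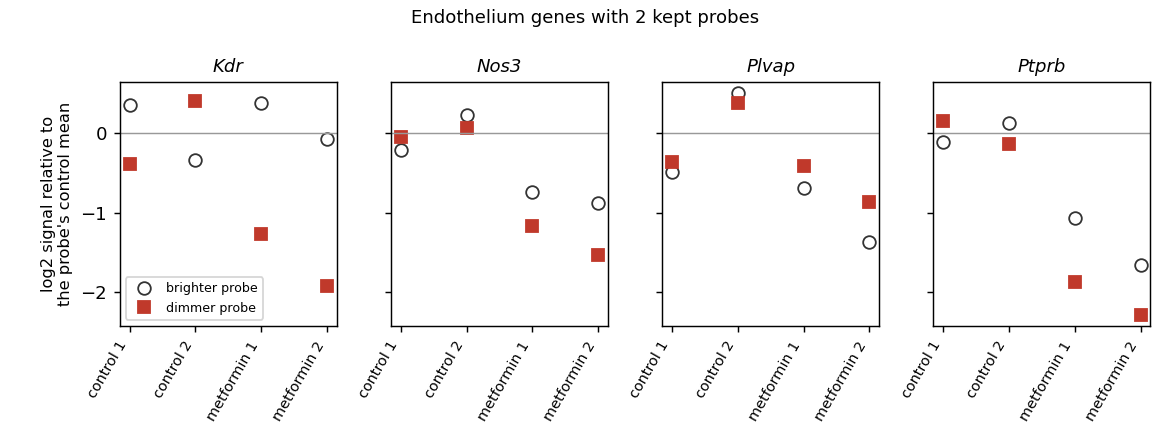
The 4 blood endothelium genes with 2 kept probes, 1 panel per gene, where the vertical axis is the log2 signal relative to the probe's mean of the 2 controls, open circles are the brighter probe used in the fit and filled squares the dimmer probe. In the Kdr panel the circles of the groups overlap while the squares of both metformin samples lie below those of the controls, and in the other panels both kinds of point are lower with metformin, where the dimmer Nos3 probe is not well above background.

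The other receptors differed in the same direction, with Tie1 resting on 1 sample. Eng, the co-receptor for BMP and TGF-beta ligands on endothelium, read -3.51 and -2.95 in the controls and -4.40 and -4.43 with metformin. The metformin samples lay close together below both controls, at a difference of -1.18 (SE 0.33). Robo4, a receptor that steadies the vascular barrier, read -1.40 and -0.51 in the controls and -2.38 and -2.44 with metformin, again without overlap. It differed by -1.46 (SE 0.41), or 2.74-fold. Tie1, a partner of the angiopoietin receptor, read -1.92 and -2.84 in the controls, with metformin 1 at -5.03 and metformin 2 at -2.02. Only metformin 1 was low, and without it the difference of -1.15 (SE 1.09) became 0.36.

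The peptide receptor genes were led by Ramp2, which read -1.26 and -1.47 in the controls and -3.10 and -2.90 with metformin. This subunit turns the receptor CALCRL into the receptor for adrenomedullin, a peptide that stabilises blood and lymphatic vessels. Its metformin values lay far below both controls, at a difference of -1.64 (SE 0.29), or 3.11-fold. Calcrl itself was not well above background on any array. Adm, the ligand gene, read -1.09 and 0.79 in the controls and -1.83 and 1.05 with metformin. Its values split by sample number and the groups overlapped, at a difference of -0.24 (SE 1.19). The apelin receptor Aplnr read -4.88 and -5.46 in the controls and -5.23 and -5.53 with metformin, with overlap, a difference of -0.21 (SE 0.35). Its ligand Apln, made by tip cells of growing vessels, read -3.56 and -3.70 in the controls, with metformin 1 at -4.74 and metformin 2 at -3.75. The groups did not overlap, but metformin 2 lay only 0.055 below the lower control, and without metformin 1 the difference of -0.62 (SE 0.43) was -0.13.

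Egfl7, Vwf, Mmrn2, Cd34 and Plvap, which encode secreted and surface proteins of the vessel wall, read lower with metformin without overlap. Egfl7, a secreted endothelial protein that guides vessel tubes, read 0.03 and -0.06 in the controls and -1.26 and -1.45 with metformin. The 4 values were tight within each group, and the difference was -1.34 (SE 0.28). Vwf, the clotting factor stored in endothelial granules and platelets, read -1.90 and -1.45 in the controls and -2.60 and -2.89 with metformin, without overlap, a difference of -1.07 (SE 0.33). Of the 6 measured platelet markers 2 had a lower mean, against 42.1% of all genes. The platelet markers' summed signal, led by Gp1bb, was 4.01 and 16.5 in the controls and 1.45 and 6.22 with metformin. Their part in the Vwf values was not tested. Mmrn2, an endothelial matrix protein that binds CD93, read -1.01 and -1.04 in the controls and -1.89 and -2.59 with metformin. The controls agreed within 0.03, and the difference was -1.22 (SE 0.36). Cd34, a sialomucin of capillaries that some fibroblasts carry as well, read -1.33 and -1.45 in the controls and -2.22 and -3.02 with metformin, a difference of -1.23 (SE 0.39) without overlap. Plvap read -1.06 and -0.08 in the controls and -1.27 and -1.94 with metformin. Metformin 1 lay 0.20 below control 1, so that its separation was narrow, and without control 2 the difference of -1.03 was -0.54.

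Among the endothelial transcription factors, Sox18, which acts in vessel and lymphatic development, read -4.68 and -4.23 in the controls and -5.79 and -6.36 with metformin. Both metformin values were lower, at a difference of -1.62 (SE 0.37), or 3.07-fold. Sox17, a factor of arterial identity, read -6.09 and -6.29 in the controls, and it was not well above background in either metformin sample. It was at least 2.04-fold lower, the controls' mean being set against, per metformin array, the probe's own signal or the dimmest signal still called well above background, whichever was higher. With normexp background correction its difference was 0.082, of the opposite sign. Both probes of Erg, an ETS factor that keeps endothelial identity, were not well above background on any array.

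Gja4 and the brighter probe of Nos3 differed by less than 2-fold. Gja4, a gap junction protein of arterial endothelium, read -3.56 and -3.78 in the controls and -3.99 and -4.28 with metformin. The groups did not overlap, and the difference was -0.46 (SE 0.30). Nos3 read -3.30 and -2.87 in the controls and -3.83 and -3.96 with metformin, also without overlap, and was 1.76-fold lower. Both probes of the arterial connexin Gja5 failed the filter.

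In all, 6 genes of the list did not pass: Tek, the angiopoietin receptor, Emcn, a capillary sialomucin, and Erg, Gja5, Calcrl and Flt4. Of their 8 probes, 5 were well above background on no array and 3 on a single control array, so no level is given.

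The lymphatic genes were mixed, and Mmrn1 had the largest difference among them. Mmrn1, a multimerin of lymphatic endothelium that platelets store as well, read -1.67 and -1.95 in the controls and -4.19 and -5.24 with metformin. Its groups were far apart, at a difference of -2.90 (SE 0.46), or 7.48-fold, the largest of the 26 genes. Pdpn, a mucin of lymphatic endothelium also made by fibroblasts and mesothelium, read -1.73 and -0.38 in the controls and -2.53 and -1.80 with metformin. The lower control and the higher metformin sample lay 0.07 apart, and the groups overlapped under quantile normalization, under scaling to the array median and in the unscaled deposited table. The difference of -1.11 (SE 0.58) was -1.79 without control 1 and -0.44 without control 2. Lyve1, the hyaluronan receptor of lymphatic capillaries and of some macrophages, read -2.09 and -1.10 in the controls and -2.69 and -1.57 with metformin. Samples numbered 1 were the lower ones in each group and the groups overlapped, at a difference of -0.53 (SE 0.57) that ranged from -1.10 to 0.028 with a sample left out. Prox1, also expressed in enteroendocrine cells, read -6.28 and -6.20 in the controls and -5.81 and -6.33 with metformin, with overlap, a difference of 0.17 (SE 0.33). Prox1 was well above background on 1 control array and on both metformin arrays, so it passed the filter through the metformin group alone.

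Set side by side, the blood and lymphatic genes could not be ordered. By sample, the median of the 22 blood genes was -0.09 and 0.09 in the controls and -0.996 and -1.21 with metformin, relative to each gene's control mean. The median of the 4 lymphatic genes was -0.27 and 0.27 in the controls, with metformin 1 at -1.29 and metformin 2 at -0.42. Both metformin samples lay below both controls for each list, and the blood genes kept a difference of -0.88 to -1.25 with any 1 sample left out. The lymphatic difference of -0.82 was -1.41 without control 1, -0.24 without control 2, -0.42 without metformin 1 and -1.29 without metformin 2. The blood median lay 0.29 above the lymphatic one in metformin 1 and 0.79 below it in metformin 2. Their difference over the groups, -0.32, was below the SD of 0.57 within groups and turned to 0.16 without control 1 and 0.29 without metformin 2. Keeping only probes well above background on all 4 arrays left out Prox1 and Sox17. The lymphatic median was then -1.11, and blood minus lymphatic was -0.035. At least 2-fold lower without overlap were 2 of the 4 measured lymphatic genes, Mmrn1 and Pdpn, against 2.30% of all genes. The count was 1 with normexp, quantile normalization, scaling to the array median and the unscaled deposited table.

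**Figure D3:**
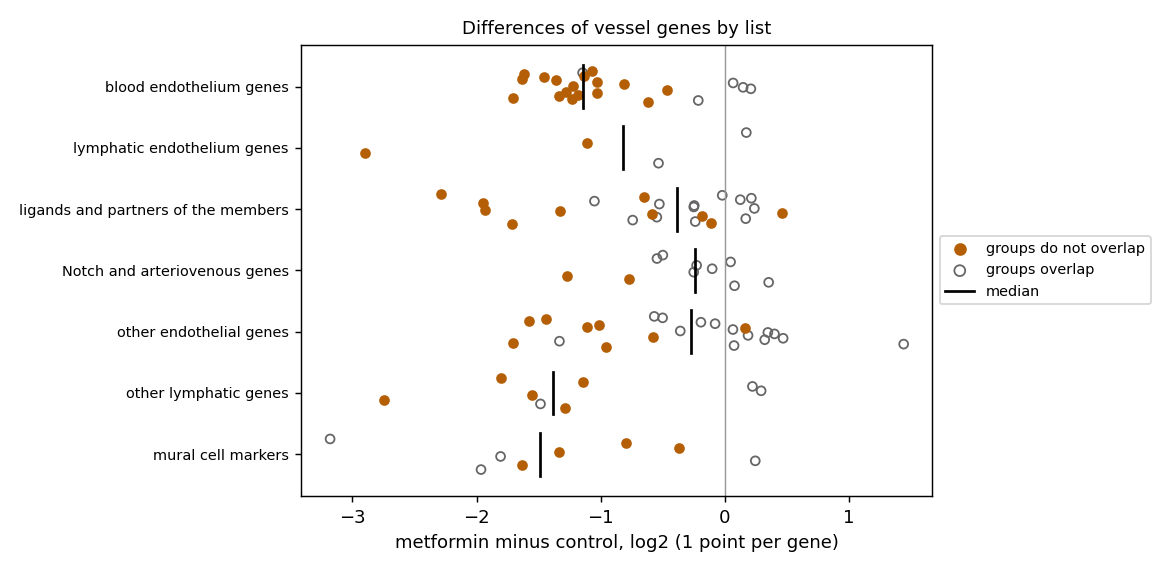
Metformin minus control differences on the log2 scale, 1 point per measured gene, for the blood and lymphatic endothelium genes and 5 further lists of vessel genes (filled where the groups do not overlap, open where they do, a black line for the median). The blood endothelium genes have a median of -1.14, and the further endothelial genes spread on both sides of 0, with a median of -0.28.

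Promoters were set beside these values for genes that read lower together: Eng and Robo4 of the blood genes and Mmrn1 and Pdpn of the lymphatic ones. ETS factors such as ERG and FLI1 bind a GGAA core and are known regulators of endothelial genes. The stretches run from 250 bases before to 50 bases after the start of the gene, 5′ to 3′ on the gene's strand (RefSeq, GRCm38.p6), and capitals mark each GGAA or its reverse complement TTCC. They lie at chr2:32646345-32646644, strand + for Eng, at chr9:37401722-37402021, strand + for Robo4, at chr6:60944067-60944366, strand + for Mmrn1 and at chr4:143299515-143299814, strand - for Pdpn.
Eng: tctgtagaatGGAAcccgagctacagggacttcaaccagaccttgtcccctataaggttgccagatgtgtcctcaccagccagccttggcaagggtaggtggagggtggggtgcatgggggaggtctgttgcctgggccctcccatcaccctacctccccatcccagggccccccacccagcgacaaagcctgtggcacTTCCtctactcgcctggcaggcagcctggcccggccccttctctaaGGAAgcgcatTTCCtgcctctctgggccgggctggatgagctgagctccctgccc
Robo4: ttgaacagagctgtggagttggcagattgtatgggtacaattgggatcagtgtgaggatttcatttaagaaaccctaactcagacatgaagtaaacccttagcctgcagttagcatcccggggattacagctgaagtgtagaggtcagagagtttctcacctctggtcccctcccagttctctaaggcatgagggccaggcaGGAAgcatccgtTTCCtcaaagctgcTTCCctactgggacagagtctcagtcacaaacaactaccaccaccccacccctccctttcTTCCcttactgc
Mmrn1: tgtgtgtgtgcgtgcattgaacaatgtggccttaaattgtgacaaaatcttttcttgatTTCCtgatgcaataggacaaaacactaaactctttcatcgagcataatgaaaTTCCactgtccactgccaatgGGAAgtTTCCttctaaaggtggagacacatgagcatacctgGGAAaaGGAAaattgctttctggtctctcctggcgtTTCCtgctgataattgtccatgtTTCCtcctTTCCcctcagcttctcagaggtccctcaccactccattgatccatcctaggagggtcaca
Pdpn: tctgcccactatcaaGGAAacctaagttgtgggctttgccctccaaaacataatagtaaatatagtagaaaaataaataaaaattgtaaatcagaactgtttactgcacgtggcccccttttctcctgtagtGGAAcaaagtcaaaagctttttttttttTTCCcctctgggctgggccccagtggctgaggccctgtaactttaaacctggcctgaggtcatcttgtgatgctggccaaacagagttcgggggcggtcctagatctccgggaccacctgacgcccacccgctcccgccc
The core stood 4 times in the Eng promoter, 4 times in that of Robo4, 9 times in that of Mmrn1 and 3 times in that of Pdpn. Over the 23 promoters listed for 18 of the 32 genes it was present in 23, with a median of 4 matches and a range of 1 to 9. Of all 32851 promoters of the same length, 96.0% held it, with a median of 3, so its presence does not set these genes apart. The SOX core, ACAAAG or ACAATG on either strand, stood in 10 of the 23 promoters, or 43.5%, against 28.6% of all. These 10 include promoters of Calcrl, Erg, Gja5 and Tek, which were not measured, and of Prox1, whose mean was not lower. The shares count promoters, 3 genes having more than 1, and their difference was not tested. CATTCCTG, a TEAD-type site that overlaps the GGAA core on the other strand, stood in 0 of the 23, against 1.69% of all. A match to these letters is a description of the sequence and not a bound site.

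The ligands and partners of these receptors were not uniformly lower. Of 29 listed, 22 were measured. Without overlap, 9 of the 22 were lower and 1 was higher, and the median difference was -0.39. By their means, 5 of the 22 were at least 2-fold lower without overlap. Among these, Nrp1 and Slit3 were not well above background with metformin, and Nrp1 was bounded only at 1.89-fold. For this and the following vessel lists, the shares over all genes without overlap were 8.46% lower, 12.5% higher and 2.30% at least 2-fold lower. Vegfa, the main ligand of the KDR receptor, read 2.37 and 2.73 in the controls and 2.67 and 2.86 with metformin, with overlap. Vegfc, the lymphatic growth factor, read -1.15 and -1.28 in the controls and -1.08 and -1.39 with metformin, a difference of -0.02 (SE 0.30). Vegfd, the other ligand of the FLT4 receptor, read -2.64 and -5.71 in the controls and -6.00 and -6.92 with metformin. Control 1 was far above the other samples, which left its difference of -2.29 with an SE of 1.11.

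The neuropilins, co-receptors for VEGF and semaphorins, were both lower without overlap. Nrp2, which pairs with FLT4 in lymphatic cells and is expressed in other cells of the gut wall too, read 0.20 and -1.71 in the controls and -2.56 and -2.81 with metformin. Nrp1 was not well above background with metformin and was at least 1.89-fold lower. Ackr3, a receptor that scavenges CXCL12 and adrenomedullin, read -4.02 and -4.09 in the controls and -5.78 and -5.76 with metformin. Both groups were tight, and it was 3.28-fold lower. Slit3, a ligand of ROBO receptors, was not well above background with metformin and was at least 2.05-fold lower. Acvrl1, the BMP receptor that works with ENG, read -1.70 in both controls and -1.81 and -1.83 with metformin, a difference of -0.11 (SE 0.27). Angpt2, the angiopoietin stored in endothelial cells, read -3.02 and -2.13 in the controls and -4.23 and -2.40 with metformin, with overlap.

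Further endothelial genes, outside the 32, were spread more widely. Of 28 listed, 22 were measured, with a median difference of -0.28. Without overlap, 7 were lower and 1 (Myct1, by 0.17) was higher, and 5 were at least 2-fold lower. Cldn5, the claudin of endothelial tight junctions, read -3.25 and -4.83 in the controls and -5.91 and -5.58 with metformin, a difference of -1.71 (SE 0.61). The adaptor gene She differed by -1.58 (SE 0.67), Rasip1, a RAS effector needed for vessel lumens, by -1.02 (SE 0.44), and Podxl, a sialomucin, by -1.11 (SE 0.63), Podxl being well above background on 1 metformin array. Tal1, a factor of blood and endothelial precursors, was not well above background with metformin and was at least 2.29-fold lower. Ecscr, an endothelial surface protein, followed the pattern of Tie1: it read -1.71 and -0.81 in the controls, with metformin 1 at -4.22 and metformin 2 at -0.97. Fli1 and Ets1, ETS factors that lymphocytes carry too, differed by 0.47 and 0.32, with overlap.

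Of the Notch and arteriovenous genes, 10 of 13 were measured, at a median difference of -0.24, and 1 was at least 2-fold lower without overlap. That gene was Hey1, a Notch target in arterial endothelium, which read -3.83 and -4.83 in the controls and -5.36 and -5.84 with metformin. Dll4, the Notch ligand of tip and arterial cells, differed by 0.08 (SE 0.36), and Efnb2 and Notch4 by 0.35 and -0.55, all with overlap. The further lymphatic genes had a median difference of -1.39, with 5 of 8 measured at least 2-fold lower without overlap, among them Gja1 at -2.75 (SE 0.70), Tbx1 at -1.80 (SE 0.43), Itga9 at -1.55 (SE 0.69), Ackr2 at -1.29 (SE 0.47) and Stab2 at -1.14 (SE 0.64). Gja1, Tbx1 and Itga9 are expressed in muscle or connective tissue as well, and Gja1 was well above background on 1 metformin array. The mural list, which holds Pdgfb beside pericyte and other mural cell markers, had a median of -1.49 over 8 genes. Of these, 4 were lower without overlap, Pdgfb among them at -0.37 (SE 0.30). Cspg4 at -1.64 (SE 0.88) and Notch3 at -1.34 (SE 0.42) were at least 2-fold lower. Control 1 stood above the other samples here, as the mural list had medians of 0.76 and -0.76 in the controls and -1.38 and -1.12 with metformin.

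Most fibroblast and adipocyte markers read lower beside the endothelial genes, while the summed signals of smooth muscle and enteric markers were high in control 1 alone. Of 12 fibroblast markers 11 were lower without overlap, against 8.46% of all genes, the share for each such count in this paragraph. The fibroblast list had a median of 0.59 and -0.59 in the controls, with metformin 1 at -1.38 and metformin 2 at -2.54. Their summed signal, in multiples of the array's 75th percentile, was 46.9 and 22.5 in the controls and 19.96 and 7.78 with metformin. Adipocyte markers were lower without overlap in 7 of 8 measured, with medians of -0.60 and 0.60 in the controls, with metformin 1 at -2.14 and metformin 2 at -3.56. Their summed signal was 14.7 and 16.8 in the controls and 23.7 and 7.11 with metformin. It was led by Cidec, the only gene of the list with a higher mean. Cidec read 3.30 and 2.76 in the controls and 4.47 and 2.73 with metformin, with overlap. Fibroblast, adipocyte and blood endothelium genes were all lowest in metformin 2 as medians, and so were the lymphocyte markers and the further endothelial and lymphatic genes. Smooth muscle markers were lower without overlap in 7 of 9, but their summed signal was 134 in control 1 and 7.14 in control 2, against 5.53 and 6.36 with metformin. Enteric neuron and glia markers, with S100b and Gfap among those not above background, were lower without overlap in 2 of 7, with summed signals of 1.63 and 0.473 in the controls and 0.454 and 0.474 with metformin. Of the 3 measured mesothelium markers, none separated the groups, and Upk3b, Wt1 and Lrrn4 were not above background. The part of these tissues in the endothelial values was not tested.

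Markers of blood cells and of the epithelium varied with the sample. Lymphocyte markers had medians of -0.029 and 0.029 in the controls and 1.14 and -0.30 with metformin, macrophage markers -0.15 and 0.15 against 0.77 and 0.20, and red blood cell markers -0.68 and 0.68 against 1.06 and -0.082. The mean was higher with metformin for 7 of 8, 5 of 6 and 4 of 4 of these genes, yet metformin 2 read below control 2 in 5, 3 and 4 of them. Of all genes tested, 42.1% had a lower mean with metformin, and 39.8% read lower in metformin 2 than in control 2. Jchain, a plasma cell gene, was lower without overlap, and F13a1, a macrophage gene not well above background with metformin, was at least 2.05-fold lower. Platelet markers, of which Itga2b and Gp1ba were not above background, had medians of -0.33 and 0.33 in the controls and -0.098 and 0.41 with metformin. Epithelium markers had a higher mean with metformin in 8 of 11 and a lower one in 3, where 42.1% of all genes were lower. They differed by a median of 0.20, while Fabp6 differed by -2.19 (SE 1.56) and Slc10a2 by -1.85 (SE 2.01), both being low in metformin 1 alone. The part of these cells in the endothelial values was not tested.

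**Figure D4:**
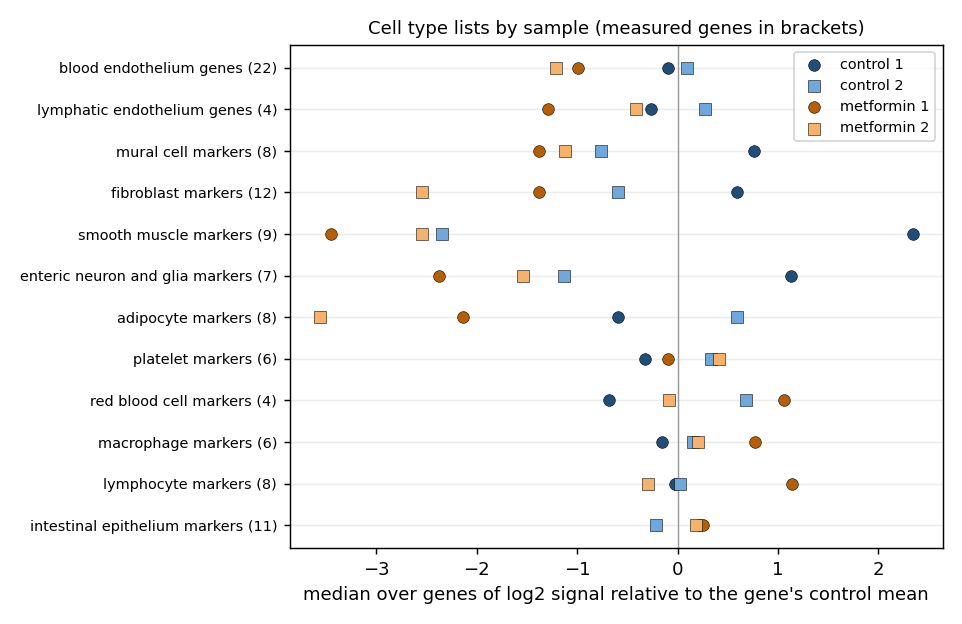
Medians of 12 gene lists in each of the 4 samples, as log2 signal relative to the gene's mean of the 2 controls, with the number of measured genes in brackets (circles and squares for samples numbered 1 and 2, blue for control, orange for metformin). The controls lie close together for blood endothelium, at -0.09 and 0.09, and far apart for smooth muscle, at 2.34 and -2.34.

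The endothelial differences were smaller with other spot signals. With normexp background correction of the median spot signals 5 of the 22 blood genes were at least 2-fold lower without overlap and their median difference was -0.63, and with the deposited table of raw median signals, scaled, 8 were and the median was -0.85. Over all genes the count at least 2-fold lower without overlap fell too, from 499 of 21649 to 116 of 21649 with normexp. It was 198 of 21670 with the scaled deposited table. Without overlap, and lower, were 14 and 15 of the 22 blood genes in these settings, for which the share over all genes is not given.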

How the data were processed

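Agilent single-colour arrays measured ileal RNA from 2 controls and 2 metformin samples. Spot intensity came from Agilent Feature Extraction 10.7.3.1, per the file headers; its processed signal has background and spatial trend removed. The table the authors deposited as normalized held an intensity equal to the raw median spot signal for all 39030 probes with 1 spot, so it served only as an alternative; 6 other columns of that table held no values and were not used.

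Here log2 processed signals had each array's 75th percentile (915 and 1453 in the controls, 864 and 1067 with metformin) subtracted. Outlier spots were left out and repeats averaged; 47 of 39429 probes lacked a usable spot. Accessions named 27508 probes with 1 symbol through the RefSeq table of GRCm38.p6, and 11921 stayed unnamed; the header build differs, so only promoter coordinates of that table's build are given. Probes well above background on both arrays of a group were kept (26441), and a gene's brightest probe was tested with limma 3.58.1 (R 4.3.3, lmFit and eBayes, two-sided, Benjamini-Hochberg over 21649 genes, threshold 0.05). With 2 against 2, an exact permutation test cannot go below p = 0.333. The number of arrays limits the precision. Each SE is the moderated one of eBayes, with 2 residual and 2.43 prior degrees of freedom, and not the gene's own spread alone.

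The members and the 15 further lists (176 entries) were chosen with earlier results of these data known. Named beside the members were genes of the vessel lists at least 2-fold changed without overlap, at most 8 per list. The ligands and partners of named receptors were named too. Other genes named (among them Myct1, Ecscr, Fli1, Ets1, Dll4, Efnb2, Notch4, Jchain, F13a1, Gp1bb, Cidec, Slc10a2 and Fabp6) were chosen after their values were seen. The normexp alternative used median spot signals, as mean spot signals are not used here. The fit was tested on simulated data. Other alternatives were quantile and median scaling, filters, probe choice, spot flags, moderation, a replicate block and leaving out each sample.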

Additional observations from a re-analysis of the deposited data

How the results depend on the processing

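No gene passed limma's adjusted threshold of 0.05 in any of the 16 alternatives run (0 genes higher and 0 lower), while 347 had an unadjusted p under 0.05, 76 of them higher. The labels give the samples shared numbers but no shared animal or batch, and with 2 pairs the deviations of same-numbered samples correlated at 0.563 across genes. With the replicate number as a block the smallest adjusted p was 0.631 and the genes at an unadjusted p under 0.05 numbered 1539; the block left the 14 and 2 genes at least 2-fold lower and the medians of -1.14 and -0.82 as they were, since the mean differences do not change.

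The blood median was -0.63 with normexp and -0.85 with the scaled deposited table, and -0.88 to -1.25 with a sample left out; its count of 14 was 5, 8 and 10 to 15 in these. The lymphatic count of 2 was 1 with normexp, quantile normalization, the array median and the deposited table as it stands (1 to 3 with a sample left out), and those without overlap were 1 with quantile normalization, the array median and the deposited table as it stands. The lymphatic median ranged from -0.24 to -1.41 and blood minus lymphatic from -0.79 to 0.29 with a sample left out. Over all genes the 499 lower and 137 higher at least 2-fold without overlap were 116 and 13 with normexp, 198 and 22 with the scaled deposited table, 811 and 318 without a filter, 850 to 1776 and 354 to 1540 with a sample left out. The higher count was also 211 with the array median, 10 in the deposited table as it stands and 42 with probes above background on all 4 arrays. The higher share, 21.5%, was 10.1% with normexp, 33.9% with the array median, 10.0% and 2.16% in the scaled and unscaled deposited table. The median of all genes, 0.06, was 0.19 with the array median and -0.17 in the unscaled table, against which its differences stand.

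Of the member values under the alternatives, 397 kept their sign and 17 turned it. Many of the 397 could not turn. The replicate block and the other moderation leave every difference as it was. The filters left the differences of the measured members unchanged, and probe choice altered only those with a pair of kept probes. With the unscaled deposited table Pecam1 was -0.12, Kdr -0.12 and Icam2 -0.083. Kdr was -0.72 as a mean of probes and -1.59 with the dimmest probe, a setting chosen after seeing the data. Sox17 was 0.082 and Aplnr 0.12 with normexp, and Aplnr 0.020 with the scaled table. With a sample left out, Pecam1 ranged from -0.18 to 0.32, Kdr from -0.20 to 0.49, Tie1 from -2.65 to 0.36, Icam2 from -0.47 to 0.89, Aplnr from -0.50 to 0.075, Lyve1 from -1.10 to 0.028 and Prox1 from -0.087 to 0.43. Dim probes limit Sox17, Prox1 and the 6 genes not above background.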
